A study of Mus musculus with 27 samples.

Results

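Arg1 and Car2 encode cytosolic enzymes, arginase 1 and carbonic anhydrase 2, and their transcript levels were followed in murine neural crest explants with and without retinoic acid (RA), the signalling form in which vitamin A acts on genes. The array's annotation gave each gene 1 probe set, a group of short probes read together, namely 93097_at for Arg1 and 92642_at for Car2. They are 2 of the 8251 genes that a probe set of 1 gene named on 27 Affymetrix MG_U74Av2 arrays of total RNA, on which 12422 probe sets were tested. Both genes were chosen on their differences between RA and control and on their course over time in these same arrays, so their values are given as a description, with no test.

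The explants were dorsal neural tubes divided along the midline, and of each embryo 1 side went to the control and 1 to RA (1e-06 M, dissolved in ethanol). RA and control sides were compared at 6, 12, 24 and 48 h. Each arm held 3 arrays for 6 h, 3 for 12 h and 4 for 24 h. At 48 h there were 4 controls and 3 arrays with RA, which makes 8 groups. Explants of the 6 h groups had first grown overnight in medium with 10% horse serum before RA was added, which is a culture history of their own. The strain, the age of the embryos, the number of embryos behind an array and whether controls received ethanol are not given in the sources used here.

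Arginase hydrolyses arginine to urea and ornithine, and ornithine feeds the synthesis of polyamines and proline. It is best known from the urea cycle of the liver and from macrophages, where it draws on the same arginine as the nitric oxide synthases. Carbonic anhydrase 2 interconverts carbon dioxide and bicarbonate with the release or uptake of a proton, and it is abundant in red blood cells, osteoclasts and oligodendrocytes. RA acts through nuclear receptors that regulate transcription, and neural crest cells, which leave the dorsal neural tube, respond to it in their patterning.

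Values are log2 of the deposited RMA intensity, so a difference of 1 is a doubling, and the number of arrays limits their precision. The array titled 48 h control 3 has a description that calls it RA treated. Its level of Cyp26a1, which degrades RA and is induced by it, was 4.92, and its level of Dhrs3, which reduces retinaldehyde, was 6.27. The lowest RA arrays stood at 5.63 for Cyp26a1 and 7.36 for Dhrs3. It was kept as a control, and results that rest on it are also given with it among the RA arrays. Scanner records held 9 scan days. The 6 h and the 48 h arrays were each scanned on days that held no other time, so time and day cannot be told apart for them, while 12 h and 24 h shared 2 days. By adjacent numbers on a day the records joined control and RA arrays into 13 pairs, and 48 h control 2 had no partner. In pieces of tissue like these, fewer cells of a type and less RNA per cell cannot be told apart.

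Of 17 neural crest marker genes 14 were measured, and 1 of them, the endothelin receptor Ednrb, was below the 25th percentile of the array on every array. The summed intensity of the 14 ran from 5635 to 6070 in 6 h controls and from 3417 to 5129 in 48 h controls. Of 10 neural tube markers 7 were measured, with sums of 2029 to 3507 over all arrays, and 1 of these, Neurog2, was below the 25th percentile on every array.

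Arg1 was higher with RA at every time. In 6 h controls it measured 7.23, 7.32 and 7.31, and with RA 8.22, 8.66 and 8.59. In 12 h controls it measured 8.77, 8.34 and 8.87, and with RA 9.74, 9.50 and 9.70. The control arrays of 12 h thus overlapped with the RA arrays of 6 h. In 24 h controls Arg1 measured 7.34, 7.69, 7.48 and 6.41, and with RA 9.61, 9.78, 9.42 and 9.36. In 48 h controls it measured 6.83, 7.45, 6.06 and 6.81, and with RA 8.77, 8.83 and 8.85. The lowest RA array lay above the highest control array at each of the 4 times, and the array whose description conflicts with its title held the lowest value of all 27.

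As group means the RA arrays exceeded the controls by 1.21 (SE 0.27) at 6 h, 0.99 (SE 0.27) at 12 h, 2.31 (SE 0.23) at 24 h and 2.02 (SE 0.25) at 48 h. These are ratios of 2.31, 1.98, 4.96 and 4.07. The mean difference was smallest at 12 h and largest at 24 h. Its change from 6 h to 12 h, -0.22 (SE 0.38), was smaller than its SE. With 48 h control 3 among the RA arrays the 48 h difference was 1.10. Over the 13 record pairs the RA array was higher in 13, by 0.83 to 2.95, which is 1.78-fold to 7.72-fold.

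Car2 was also higher with RA, by less. In 6 h controls it measured 7.80, 7.49 and 7.35, and with RA 7.78, 8.05 and 8.14. In 12 h controls it measured 8.39, 7.79 and 8.27, and with RA 8.57, 8.49 and 8.89. At 6 h the arms overlapped through control 1 and RA 1, and at 12 h they did not. In 24 h controls Car2 measured 7.36, 7.69, 7.90 and 7.51, and with RA 8.07, 8.81, 8.19 and 7.95. In 48 h controls it measured 6.72, 7.07, 6.82 and 8.18, and with RA 7.91, 8.10 and 9.41. The arms were apart at 24 h, by a narrow gap, and overlapped at 48 h through control 4 alone.

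The Car2 group means differed by 0.44 (SE 0.33) at 6 h, 0.50 (SE 0.33) at 12 h, 0.64 (SE 0.29) at 24 h and 1.28 (SE 0.31) at 48 h. These are ratios of 1.36, 1.42, 1.56 and 2.42. The SEs of differences, for Arg1 too, are those of the fit over all 8 groups with a shared spread. From the 48 h arrays alone the SE of the Car2 difference at 48 h was 0.58. The RA array was higher in 12 of 13 record pairs, with a range from -0.02 to 1.28, and the exception was the first 6 h pair.

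**Figure D1:**
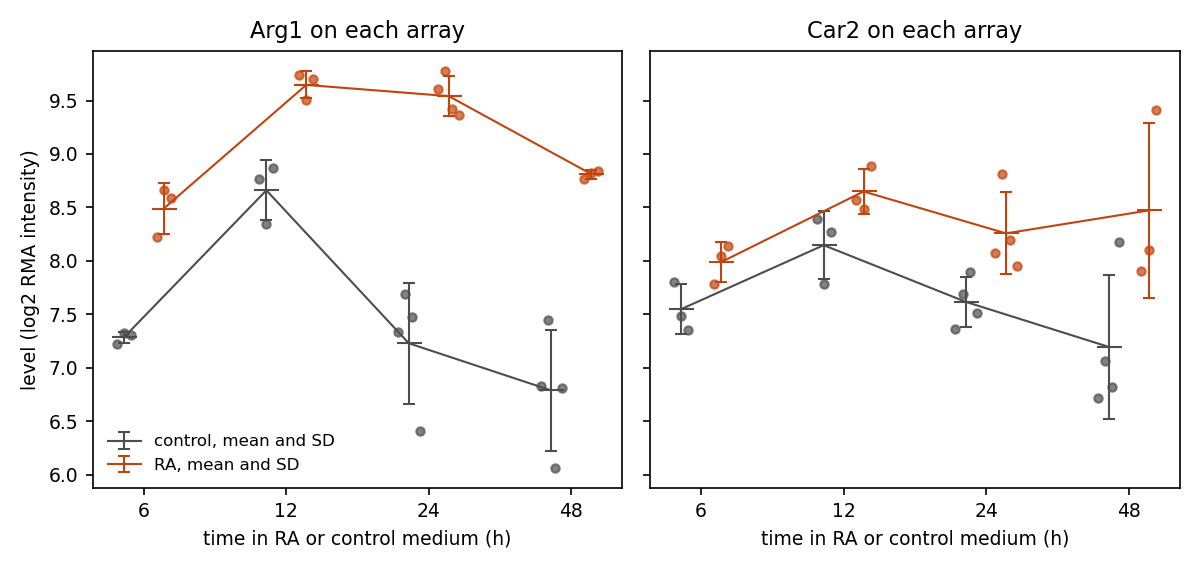
Levels of Arg1 (left) and Car2 (right) as log2 RMA intensity on each of 27 arrays (points) at 6, 12, 24 and 48 h (evenly spaced on the axis), with group means joined by lines and bars of 1 SD, controls in grey and RA in orange. The Arg1 arms are separate at all 4 times, while the Car2 arms overlap at 6 h and 48 h, and at 48 h 1 array of each arm stands above the rest of its group.

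A gap between the arms was not rare among all probe sets at the early times. Every RA array lay above every control array for 7.28% of the 12422 probe sets at 6 h, where 1 of the 2 genes did so. The share was 4.49% at 12 h, where both genes did, and 1.39% at 24 h, where both did. At 48 h it was 1.06%, and Arg1 alone did so. Both genes were chosen on these differences, so nothing is read from their counts against these shares.

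At 48 h the differences of Car2 within pairs varied less than its levels between arrays. Control 4 and RA 3, scanned together last, deviated from their group means by 0.98 and 0.94. Within the 3 pairs of 48 h the difference was 1.19, 1.28 and 1.23, with an SD of 0.04. The SD between arrays was 0.67 in the control and 0.82 in the RA group. At 6, 12 and 24 h the SD of the pair differences was 0.42, 0.28 and 0.36. Group SDs at these times were 0.23, 0.32 and 0.23 in controls and 0.18, 0.21 and 0.38 with RA. Without RA 3 the 48 h difference of group means was 0.81, and without control 4 it was 1.60. Without both it was 1.13, and with 48 h control 3 among the RA arrays it was 0.74. Arg1 did not share this deviation, since it measured 6.81 in control 4 and 8.85 in RA 3, with deviations of 0.02 and 0.03.

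**Figure D2:**
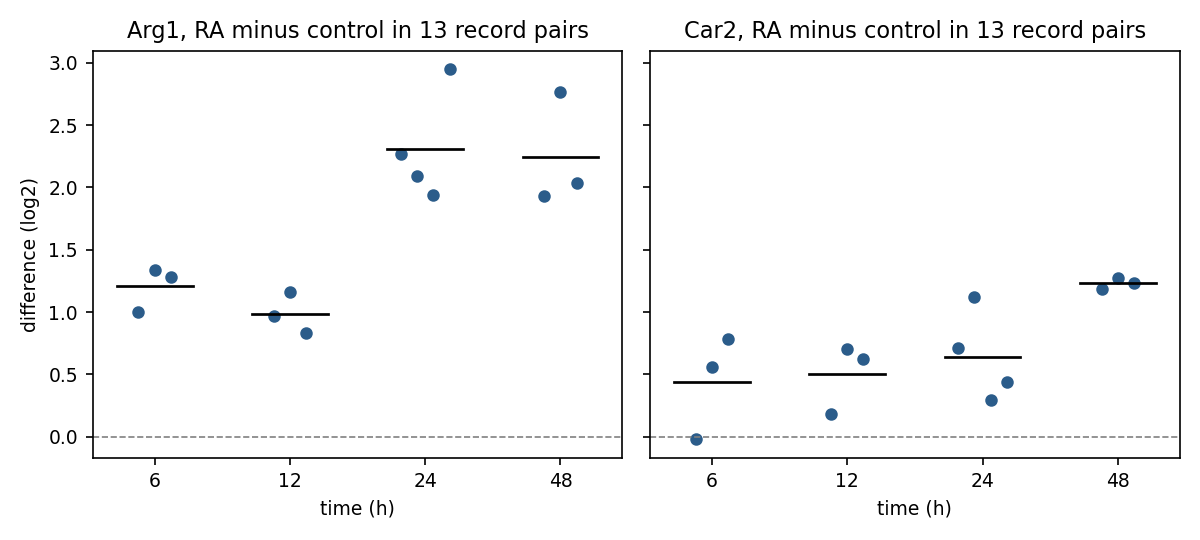
Differences in log2 level between the RA and the control array of each of the 13 record pairs (points) by time, with their mean (bar) and 0 dashed, for Arg1 (left) and Car2 (right). Arg1 differences lie between 0.83 and 1.34 at 6 h and 12 h and between 1.93 and 2.95 later, and Car2 differences at 48 h lie within 1.19 to 1.28.

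Over time the mean of controls was highest at 12 h for both genes. The Arg1 mean of controls was 7.28 (SD 0.05, n = 3) at 6 h, 8.66 (SD 0.28, n = 3) at 12 h, 7.23 (SD 0.56, n = 4) at 24 h and 6.79 (SD 0.57, n = 4) at 48 h. The step to 12 h was thus 1.38 and the step from there to 24 h -1.43, and no array of 12 h controls overlapped with those of the other times. The share of all probe sets with such gaps between times was not counted, so nothing is read from them. The later step, from 24 h to 48 h, was -0.44, within the spread of either group. It was -0.71 without 24 h control 4 and -0.20 without 48 h control 3 or with that array among the RA arrays. For the step between 12 h and 24 h 1 of the 12422 probe sets had a lower value in controls. Arg1 was chosen with this course known, so nothing is read from that rank.

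With RA the course of Arg1 differed. Its mean was 8.49 (SD 0.24, n = 3) at 6 h, 9.65 (SD 0.13, n = 3) at 12 h, 9.54 (SD 0.19, n = 4) at 24 h and 8.81 (SD 0.04, n = 3) at 48 h. The step from 6 h to 12 h, 1.16, was close to that of controls, with an arm difference of -0.22 (SE 0.38). Between 12 h and 24 h the RA arm moved by -0.10 where controls moved by -1.43, an arm difference of 1.33 (SE 0.35). From 12 h to 48 h the steps were -0.83 and -1.87, an arm difference of 1.04 (SE 0.36), which was 0.11 with 48 h control 3 among the RA arrays. The level of Arg1 with RA at 48 h was still within the range of 12 h controls, which ran to 8.87.

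The Car2 controls had means of 7.55 (SD 0.23, n = 3), 8.15 (SD 0.32, n = 3), 7.62 (SD 0.23, n = 4) and 7.20 (SD 0.67, n = 4) at 6, 12, 24 and 48 h. Those of 12 h overlapped with the controls of each other time. The RA arrays had means of 7.99 (SD 0.18, n = 3), 8.65 (SD 0.21, n = 3), 8.26 (SD 0.38, n = 4) and 8.47 (SD 0.82, n = 3). From 6 h to 12 h Car2 moved by 0.60 in controls and 0.66 with RA. Between 12 h and 24 h it moved by -0.53 and -0.39, an arm difference of 0.14 (SE 0.44). Over the span from 12 h to 48 h the steps were -0.95 in controls and -0.18 with RA. The arm difference was 0.77 (SE 0.46 with the spread shared by all 8 groups, which was narrower than that of the 48 h groups). The mean step with RA from 24 h to 48 h, 0.21, was -0.25 without RA 3, so its direction rests on that array. The arm difference from 12 h to 48 h was 0.30 without RA 3 and 1.10 without control 4.

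The 2 scan days that held arrays of both 12 h and 24 h gave the step between them within a day. On the day with 2 arrays per group the Arg1 step was -1.61 in controls and -0.23 with RA. On the day with 1 array per group it was -1.53 and -0.10. Both days thus held the wide step in controls and the narrow one with RA. The Car2 step was -0.38 in controls and -0.46 with RA on the first of these days, and -0.91 and -0.82 on the second, nearly equal between the arms on each day.

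**Figure D3:**
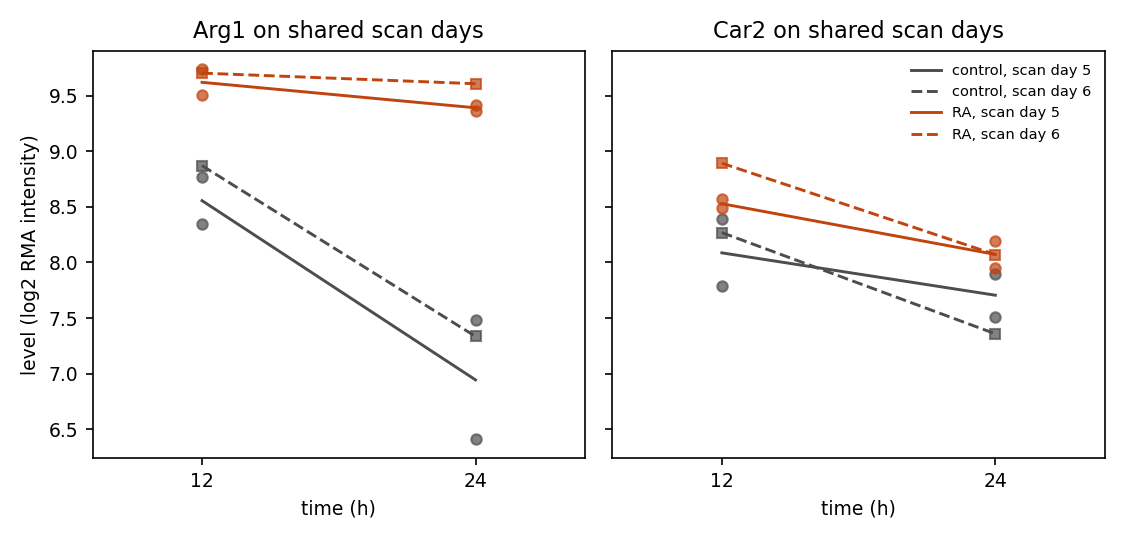
Log2 levels at 12 h and 24 h of the arrays from the 2 scan days that hold both times (day 5, circles and full lines; day 6, squares and dashed lines), with lines joining the means of a day, controls in grey and RA in orange. For Arg1 (left) the control steps are -1.61 and -1.53 and the RA steps -0.23 and -0.10, while for Car2 (right) the steps of the arms differ by less on each day.

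Ordered by level, Arg1 formed 3 tiers. Controls of 48 h, 24 h and 6 h stood lowest and overlapped as neighbours. RA at 6 h, controls at 12 h and RA at 48 h came next, again with overlapping neighbours, and RA at 24 h and 12 h stood highest. The steps between tiers, 1.21 and 0.73, were the only ones between neighbours without overlap. Such gaps were not counted over all probe sets, and nothing is read from them. For Car2 each of the 8 groups overlapped with the next, from controls at 48 h as the lowest to RA at 12 h as the highest. Differences between the 8 groups made up 92.7% of the variance of Arg1 and 61.4% of that of Car2, and the SD that remained was 0.35 and 0.44.

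Arg1 ranged from 6.06 to 9.78 over all arrays, 13.1-fold in intensity, and stayed above the 39th percentile of each array. Car2 ranged from 6.72 to 9.41, which is 6.46-fold, and stayed above the 52nd. The genes moved together mainly through the groups. Their correlation was 0.76 over the 27 arrays and 0.95 over the 8 group means, but 0.28 over the deviations of arrays from their group means. These points share the RA treatment, the time and the array.

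Since Arg1 and Car2 were chosen on their differences between RA and control, nothing is read from setting other genes against them. Among the measured genes of the same pathways the differences were narrower. Tests on them were made by limma with adjustment over all 12422 probe sets, and a gene passed at an adjusted p below 0.05. In the list of arginine and urea cycle genes 14 of 19 were measured, 8 of 16 in that of ornithine, proline and polyamines, 8 of 15 in that of carbonic anhydrases and 11 of 18 in that of bicarbonate, proton and water transport. Of these 41 genes, 0 passed in either direction at 6 h, where 0.0242% of all probe sets did. The count was also 0 at 12 h (0.0242% of all), at 24 h (0.153%), at 48 h (0.274%) and for the mean of the 4 times (0.564%). At an unadjusted p below 0.05 there were 0, 1, 1, 2 and 3 of 41, where the shares of all probe sets were 4.29%, 2.49%, 1.84%, 3.42% and 5.63%.

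The mean RA difference over the 4 times ran from -0.24 for Sat1 to 0.30 for Car3 among the 41, with a median of 0.03, where that of all probe sets was 0.01. The same quantity was 1.63 (SE 0.13) for Arg1 and 0.71 (SE 0.16) for Car2, which were chosen on these differences. Replicate number as a block gave 31 calls at 24 h in place of 19, and 0 among the 41. With record pairs as a block Ass1, Sat1 and Car3 passed in the mean over times, where 365 of 12422 probe sets did. In that fit Car3 also passed at 48 h, where 123 probe sets did.

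Arg2, the mitochondrial arginase, differed by 0.06 (SE 0.08, adjusted p = 0.999 by limma) in the mean of the 4 times, and its group means lay between 4.93 and 5.25, where RMA compresses differences. Ass1, which makes argininosuccinate in the urea cycle, differed by 0.18 (SE 0.08, adjusted p = 0.721 by limma). With a block for record pairs the Ass1 difference was 0.19 with an adjusted p of 0.0414. Otc and Cps1, the mitochondrial enzymes at the head of the cycle, differed by 0.05 and 0.04, and Otc lay below the 25th percentile on every array. Nos2, the inducible nitric oxide synthase, differed by -0.01, and Ddah2, of the dimethylarginine hydrolases, by -0.10.

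Beyond ornithine, Odc1, the decarboxylase that opens polyamine synthesis, differed by 0.12 (SE 0.07) in the mean of the 4 times, and Srm, the spermidine synthase, by 0.14 (SE 0.12). Oat, which turns ornithine toward proline and glutamate, differed by -0.0018 (SE 0.09). Sat1, which acetylates polyamines for their breakdown, differed by -0.24 (SE 0.07, adjusted p = 0.216 by limma), and by -0.25 with an adjusted p of 0.00346 where record pairs were a block. Sat1 was also called without 12 h control 1 (adjusted p = 0.042).

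Among the other carbonic anhydrases Car3, a muscle isoform of low activity, had the widest difference, 0.30 (SE 0.12, adjusted p = 0.605 by limma) in the mean of the 4 times and 0.56 at 48 h. With record pairs as a block these values were 0.34 (adjusted p = 0.0233) and 0.75 (adjusted p = 0.0343), so that Car3 passed in that fit. Car4 and Car12, which face the outside of the cell, differed by 0.06 and 0.08. Car14 differed by 0.04, Car1, the red cell isoform, by 0.002, and Car6, the secreted form, by 0.11. The water channel Aqp1 differed by 0.19 (SE 0.14) and the sodium bicarbonate cotransporter Slc4a4 by 0.02 (SE 0.15).

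**Figure D4:**
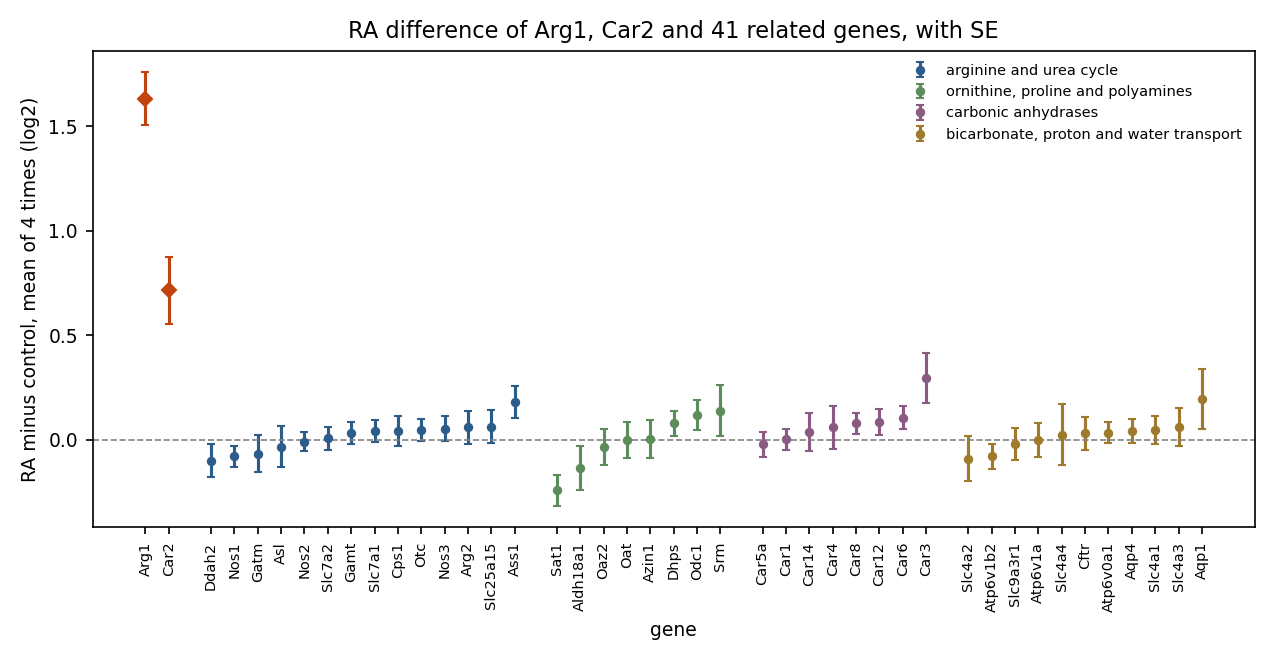
Mean log2 difference between RA and control over the 4 times, with its SE, for Arg1 and Car2 (diamonds) and for the 41 measured genes of 4 lists (circles, coloured by list and ordered by value). The 41 genes lie between -0.24 and 0.30, below Car2 at 0.71 and Arg1 at 1.63, which were chosen on these differences.

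The time course of controls had more passing genes in these lists, as it had over the whole array. From 6 h to 12 h 2 of the 41 fell and 0 rose, where 5.43% of all probe sets passed. Sat1 fell by 0.94 (adjusted p = 0.000701 by limma), and Oaz2, an antizyme that restrains ornithine decarboxylase, fell by 0.71 (adjusted p = 0.0182). The Oaz2 call was lost without 6 h control 2 or 3 or 12 h control 1 or 2, at an adjusted p of up to 0.0925. Azin1, an inhibitor of antizymes, measured 0.64 higher at 12 h than at 6 h and did not pass (adjusted p = 0.0512), but passed in 11 of the alternatives, at 0.0297 to 0.0472. Between 12 h and 48 h 3 rose and 3 fell, where 8.78% of all did. Sat1 rose by 1.48 (adjusted p = 6.58e-07 by limma), so its 12 h low stood where Arg1 and Car2 had their highest control means. Both Sat1 calls held with any 1 array left out.

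The other calls from 12 h to 48 h did not hold in every fit with 1 array left out. Ass1 rose by 0.52 (adjusted p = 0.0357 by limma) and Atp6v1b2, a proton pump subunit, by 0.39 (adjusted p = 0.0382). Gatm, which uses arginine to make guanidinoacetate, fell by 0.82 (adjusted p = 0.00458), Srm by 0.94 (adjusted p = 0.0163) and Car14 by 0.68 (adjusted p = 0.0191). Without 12 h control 1 none of these 5 passed. The adjusted p by limma was then 0.0624 for Gatm, 0.083 for Srm, 0.146 for Ass1 and 0.191 for Car14. Calls over all probe sets were 459 without that array and 1091 with it. Ass1 was also lost without 12 h control 2 or 3 or 48 h control 2 or 4, Srm without 12 h control 3 or 48 h control 3, and Car14 without 48 h control 3. Atp6v1b2 was lost without any of the 3 controls of 12 h or 48 h control 4, at up to 0.145.

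The change from 12 h to 48 h was compared between the arms for all probe sets as well, and 2 passed, 0.0161% of all. One was Igfbp3, a carrier of insulin-like growth factors, which was higher by 1.26 (SE 0.21, adjusted p = 0.0302 by limma) in the arm difference, and the other, 161049_at, has no gene name here. The Igfbp3 call was lost in 9 of the fits with 1 array left out, at an adjusted p of up to 0.199 by limma, and without 12 h control 1 it was 0.182. Neither probe set passed with 48 h control 3 among the RA arrays (adjusted p = 0.901 for both). Of the 41 listed genes 0 passed, and 0 had an unadjusted p below 0.05, where 1.63% of all probe sets did.

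Transcripts of cell types known for either enzyme were examined beside these values. Of 16 macrophage markers 14 were measured, 0 passed in any comparison as fitted, and Ptprc, Lyz2, Mrc1 and Fcer1g lay below the 25th percentile on every array. In controls Fcgr1, an antibody receptor, measured -0.30 at 12 h against 6 h (adjusted p = 0.0565 by limma), and passed in 5 alternatives. Adgre1, a macrophage surface protein, passed from 12 h to 48 h only without 48 h control 1 (0.39, adjusted p = 0.0399). The sum of the 14 was 583 to 655 with RA and 591 to 651 in controls at 24 h, and 592 to 706 with RA and 560 to 795 in controls at 48 h. Of 14 endoderm and liver markers 14 were measured, with sums of 894 to 986 with RA and 870 to 1056 in controls at 24 h, and 0 passed between RA and control.

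Of 13 red blood cell markers 11 were measured. Their sum was 757 to 930 with RA and 735 to 937 in controls at 48 h, where Car2 differed most. Between RA and control 0 passed, where 0.0242% to 0.564% of all probe sets did. Between 12 h and 48 h the embryonic globin Hbb-y fell by 0.95 in controls (adjusted p = 0.0284 by limma), and not without 12 h control 1 or 3 or 48 h control 2 (adjusted p of up to 0.168).

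Of 6 osteoclast markers 5 were measured, among them Mmp9, a gelatinase that is also made by migrating cells. The sum of the 5 was 760 to 851 in controls at 6 h, 1029 to 1260 at 12 h, 695 to 903 at 24 h and 376 to 505 at 48 h. Mmp9 had control means of 9.28, 9.88, 9.23 and 7.74 at these times, and fell by 2.15 in controls from 12 h to 48 h (adjusted p = 5.05e-07 by limma). Tnfrsf11a, the receptor that drives osteoclast formation, had control means of 5.60, 5.47, 5.60 and 5.65, lowest at 12 h, and passed as higher at 48 h only without 48 h control 2 (0.28, adjusted p = 0.0443). With RA the sum was 1073 to 1382 at 12 h and 445 to 652 at 48 h. Of the 5 genes 0 passed between RA and control, where 0.0242% to 0.564% of all probe sets did. With record pairs as a block Mmp9 was higher with RA at 48 h by 0.56 (adjusted p = 0.0213). The part of such cells in the levels of Arg1 and Car2 was not tested.

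Of 11 glial markers 8 were measured, and 1 passed between RA and control, where 0.0242% to 0.564% of all probe sets did. Fabp7, which binds fatty acids and marks radial glia, fell by 1.26 at 24 h (adjusted p = 0.0148 by limma) and by 0.76 in the mean of the 4 times (adjusted p = 0.00154). The 24 h call was lost without control 2 or 4 or RA 1 or 3, at up to 0.0962. Pmp22, a protein of peripheral myelin, did not pass (adjusted p = 0.202 for the mean), but passed with a replicate block (0.61, adjusted p = 0.000505) and with record pairs as a block (0.86, adjusted p = 1.98e-06). Of the 14 neural crest and 7 neural tube genes 0 passed between RA and control, where the same shares of all probe sets did. At 6, 12, 24 and 48 h and in the mean, 0, 3, 0, 1 and 2 tube genes had an unadjusted p below 0.05 by limma. For crest genes the counts were 1, 0, 1, 1 and 2, and the shares of all probe sets 4.29%, 2.49%, 1.84%, 3.42% and 5.63%. With record pairs as a block, 4 of the crest and tube genes passed as lower with RA in the mean of the 4 times by limma: Sox2 (-0.65, adjusted p = 0.00484), Zic1 (-0.36, 0.0103), Tfap2b (-0.23, 0.0168) and Hes5 (-0.30, 0.0242). In that fit Sox2 also passed at 48 h (-1.35, adjusted p = 0.0113), Tfap2b at 6 h (-0.46, 0.0483) and Fabp7 at 12 h (-1.07, 0.00637) and 48 h (-0.83, 0.0145). Tfap2b passed in the mean by limma with a replicate block too (-0.30, adjusted p = 0.024). The replicate block joined arrays by number, and at 48 h the arrays of numbers 2 and 3 were not record pairs. With scan day as a block, Sox2, Zic1 and Tfap2b passed as lower in the mean too. Ednrb, an endothelin receptor of crest cells that was below the 25th percentile on every array, passed there as higher (0.28, adjusted p = 0.0491 by limma). That block also passed Pmp22, Sat1 and Car3 in the mean, and Sox2, Fabp7, Pmp22, Car3 and Mmp9 at 48 h. Fabp7 passed in it at 12 h and Pmp22 at 24 h.

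In controls from 12 h to 48 h, where Arg1 and Car2 had steps of -1.87 and -0.95, 1 of the 14 crest genes rose and 5 fell, and 2 of the 7 tube genes fell, where 8.78% of all probe sets passed. The crest count of 6 was 2 without 12 h control 1. Msx1, a homeobox gene of the dorsal midline, fell by 1.47 (adjusted p = 0.00307 by limma), and Id2, an inhibitor of basic helix-loop-helix factors, by 0.74 (adjusted p = 0.00171). Sox2 and Pax6, transcription factors of neural progenitors, fell by 2.02 (adjusted p = 0.00188) and 1.22 (adjusted p = 0.000321). These 4 calls held with any 1 array left out, and the other 4 did not. Snai2, a repressor of epithelial genes in crest cells, rose by 1.02 (adjusted p = 0.0176 by limma), a call lost without 12 h control 1 or 2 or 48 h control 3 or 4, at up to 0.094. Zic1, a zinc finger factor of the neural plate border, fell by 1.32 (adjusted p = 0.0135), lost without 12 h control 1 or 3. Erbb3 fell by 0.98 (0.0268), lost without 12 h control 1 or 2 or 48 h control 1 or 3. Tfap2b, an AP-2 factor, fell by 0.71 (0.0285), lost without 12 h control 1, 2 or 3 or 48 h control 1 or 4.

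The genes most like each enzyme over the 27 arrays were taken from 1434 probe sets of 1 gene whose group means varied with an SD of at least 0.3. For Arg1 they were Traf3ip2, an adaptor in interleukin signalling, with a correlation of 0.89, Spsb1, a substrate adaptor for ubiquitin ligases (0.86), Rin2, an exchange factor for Rab5 (0.83), the peptide hormone gene Cck (0.83) and the ETS factor Etv2 (0.82). Car2 came 15th at 0.76. All 5 had a higher mean with RA at each time, by 0.47 to 0.81 for Traf3ip2 and by 0.61 to 1.2 for Spsb1. Etv2 had the widest course in controls, with means of 7.18, 8.97, 7.80 and 6.44 at 6, 12, 24 and 48 h, the same order of times as Arg1 except that its 24 h mean lay above that of 6 h. Correlations of deviations from the group means were between -0.05 and 0.36 for these genes, so the likeness lay in the groups.

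For Car2 they were Errfi1, a feedback inhibitor of the epidermal growth factor receptor (0.81), Arg1 (0.76), Rin2 (0.75), the transcriptional repressor Bhlhe40 (0.72) and the somite homeobox gene Meox1 (0.72). Errfi1 and Bhlhe40 followed Car2 within groups too, with correlations of deviations of 0.69 and 0.65. For Rin2, Meox1 and Arg1 these were 0.44, 0.36 and 0.28. In the 48 h pair that stood high for Car2, control 4 measured 11.27 for Errfi1, 7.25 for Bhlhe40 and 8.73 for Rin2. For each gene this was the highest of the 4 controls. RA 3 measured 11.69, 8.27 and 9.60, the highest of the 3 RA arrays. These genes were chosen for their likeness on the same arrays and share the treatment, the time and the array with Arg1 and Car2.

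**Figure D5:**
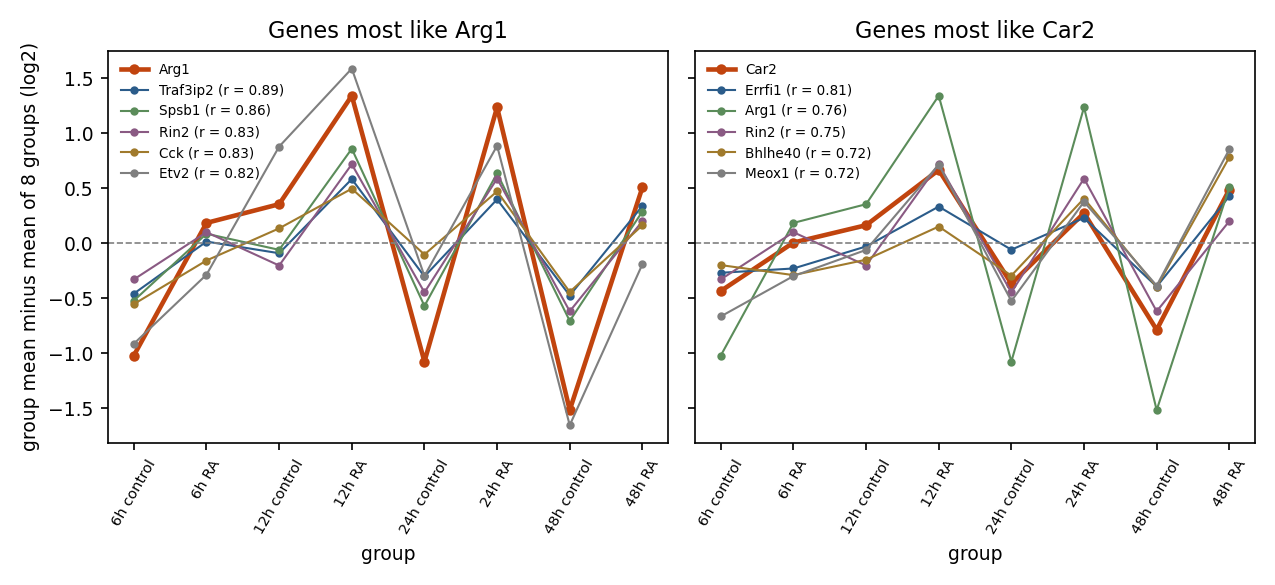
Group means of Arg1 (left) and Car2 (right) and of the 5 genes with the highest correlation over 27 arrays, each as log2 difference from its own mean of the 8 groups, with the correlation in the legend. Lines join groups only to guide the eye; the genes most like Arg1 are high with RA at 12 h and 24 h and low in controls at 48 h.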

How the data were processed

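The values were RMA intensity from MG_U74Av2 arrays, which the authors made with RMA Express 0.2 and then took into GeneSpring, per the submitters' processing notes. The sources used here do not say whether that step changed them. The deposited intensity ran from 3.92 to 17003 and was linear, where the plan had assumed log2 values, so log2 was taken once. Of 12488 probe sets 66 controls were left out. Arrays were grouped by title. Scan days and record pairs came from the scanner records, and 0 columns belonged to other samples.

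Differences were fitted with limma 3.58.1 in R 4.3.3 over 8 groups with 19 residual degrees of freedom and no block, two-sided, with Benjamini-Hochberg adjustment over 12422 probe sets. Since separate cultures are not stated, p values reflect only how far these arrays differ. The fit was tested on simulated data. Arg1, Car2 and the 11 gene lists were chosen with earlier results of these data known. Named genes were list members that passed, otherwise the 2 widest mean differences of a list, the 5 genes most like each enzyme, and Cyp26a1 and Dhrs3; further list genes were named for their role, after their values were seen. A gene's brightest probe set stood for it. With group means removed, arrays of equal number correlated by 0.447 to 0.47 at 6 h and 0.229 to 0.622 at 24 h, where numbers were read as pairs, and not above 0.1 in every case at 12 h and 48 h. Alternatives were blocks, scaling, filters, a trend, regrouping 48 h control 3 and leaving out arrays. Plots were made with matplotlib 3.10.9 in Python 3.11.15, with tables from pandas 2.3.3.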

Additional observations from a re-analysis of the deposited data

Results flagged for a closer look

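Of 117 groups of 4 arrays examined over the named genes, 3 held an array far from the others, and chance alone sets about 1 in 20 apart. Cyp26a1 measured 6.86 in 24 h RA 1, below the 7.02 to 7.05 of the other 3. Erbb3, a neuregulin receptor of crest cells and glia, measured 8.71 in 24 h control 4, below 9.10 to 9.11 in the others, and that array also held the lowest Arg1 value of its group, 6.41. Srm measured 9.01 in 24 h control 3, above 8.92 to 8.93 in the others.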

How the results depend on the processing

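Over the alternatives, 565 values of Arg1 differences and 553 of Car2 kept their direction and moved by less than the replicate SD. Of the others, 4 of Arg1 and 6 of Car2 moved further and 10 of Car2 reversed. With 48 h control 3 among the RA arrays, the 48 h difference was 1.10 for Arg1 and 0.74 for Car2, the RA step from 24 h to 48 h -1.42 and -0.20, the RA step of Arg1 from 12 h to 48 h -1.52, and the arm difference from 12 h to 48 h 0.11 and 0.24. Without the 48 h pair scanned last, an alternative chosen after seeing the data, the Car2 RA steps to 48 h were -0.25 from 24 h and -0.65 from 12 h. With 1 array left out, Car2 ran from 0.81 to 1.60 for RA against control at 48 h, -0.25 to 0.50 for its RA step from 24 h to 48 h, -0.65 to 0.11 from 12 h to 48 h, -0.12 to 0.18, -0.046 to 0.32 and 0.30 to 1.10 for the arm differences from 6 h to 12 h, 12 h to 24 h and 12 h to 48 h, and 8.0 to 8.75 for its 48 h RA level. With scan day as a block, record pairs as a block, 48 h control 3 as RA and the compared time alone, counts over all probe sets were 55, 118, 0 and 6 for 6 h, 12, 17, 0 and 7 for 12 h, 50, 81, 6 and 10 for 24 h, and 99, 123, 7 and 3 for 48 h. A replicate block gave 31 (24 h), 127 (48 h) and 162 for the mean, where scan day gave 286 and record pairs 365. At 48 h the replicate block joined arrays of numbers 2 and 3 that were not record pairs. The replicate block changed no call between RA and control in the 4 enzyme and transport lists. With those times alone the controls gave 1678 from 6 h to 12 h and 389 from 12 h to 48 h. The arm difference gave 1 with median centring, 4 and 5 with blocks, 0 with 48 h control 3 as RA, 1 with those times alone and 1 without the last pair. With 1 array left out the counts ran from 1 to 4 (6 h), 1 to 4 (12 h), 10 to 23 (24 h), 261 to 807 and 459 to 1579 for the controls, and 1 to 3 for the arm difference. RMA gives no detection calls, so low levels such as those of Arg2 have no stated floor.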
